A study of Mus musculus with 10 samples.

Results

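The strongest H3K4me3 regions are the 100 bp regions that carried at least 60 H3K4me3 reads per 10000000 library reads in cells of each of 3 Dnmt3a2 constructs, labelled WT, WWD and R. There were 2811 of them among the 32293 regions of the H3K4me3 table, or 8.70%. The H3K4me3 values themselves chose these regions, so their levels are given as a description without a test, whereas Dnmt3a2 reads and positions were not used in the choice. Reads per 10000000 library reads are called normalised reads below. The cells were J1 mouse embryonic stem cells labelled Dnmt TKO in all groups, each expressing FLAG-tagged Dnmt3a2 as WT, WWD or R. For H3K4me3, 1 ChIP sample per construct was used, all from the line that the labels number 1. For Dnmt3a2, the labels list 2 FLAG ChIP samples per construct, 1 from that line and 1 labelled bulk, but each table has 1 column per construct and does not show which sample or samples it holds. These columns are called libraries below, and with 1 per construct nothing here has a replicate check and no test was run.

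Trimethylation of histone H3 at lysine 4 marks the nucleosomes around active and poised promoters, above all at CpG islands. In embryonic stem cells the same promoters tend to be free of DNA methylation. Dnmt3a is a de novo DNA methyltransferase whose ADD domain binds the H3 tail when lysine 4 is unmethylated, and methylation of that lysine hinders binding. Dnmt3a2 is its shorter isoform, which lacks the N-terminal part of the long form and is the main form in embryonic stem cells. The series title describes an engineered histone-recognition domain in Dnmt3a, and the labels do not say which residues WWD and R change. If their reads reflect the mark itself, strong H3K4me3 regions carry much of the histone signal that hinders binding of unaltered Dnmt3a.

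The H3K4me3 libraries held 18801269 reads (WT), 26012284 (WWD) and 27424019 (R). The Dnmt3a2 libraries held 24015095 reads (WT), 17259400 (WWD) and 25254320 (R). An input sample is listed but was not analysed here, so all values include background. A region that collects reads in every library cannot be told apart from a region that is enriched. In these mixed cell populations, a mark carried by more cells also cannot be told apart from more of the mark per cell. Intervals are 95% intervals that cover counting error only. They treat reads or regions as independent, and reads from PCR libraries are not independent molecules. Overlap of intervals does not show that values are equal. The regions carry no gene names, and no gene table of their build (mm9) was used, so they are named by position.

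H3K4me3 at the 2811 strongest regions ranged from 60.1 to 1161 normalised reads in WT, with a median of 106. In WWD it ranged from 60.4 to 1122 with a median of 95.7, and in R from 60.2 to 997 with a median of 95.9. The median region thus held 200 whole reads (WT), 249 (WWD) and 263 (R). Over the whole table the median H3K4me3 level was 21.8 (WT), 19.6 (WWD) and 17.5 (R). The strongest regions held 29.3% of the H3K4me3 reads of the table in WT and 32.1% in R, with WWD in between.

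The cutoff at 60 divides a continuous range. Just inside it were 3 regions with 60.1 normalised reads in WT, at chromosome 1, 130141099 to 130141198, and chromosome 2, 118861032 to 118861131 and 174289219 to 174289318. Their WWD values were 106, 76.9 and 64.2, and their R values were 62.4, 85.7 and 88.6. Just outside were 3 regions whose 156 WWD reads fell just short, at chromosome 12, 56593409 to 56593508, chromosome 16, 49855427 to 49855526, and chromosome 18, 24112889 to 24112988. Their WT values were 107, 61.7 and 129, and their R values were 63.1, 74.4 and 83.9. A cutoff of 50 gave 3944 regions and a cutoff of 80 gave 1357.

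Most of the strongest regions lay close to the cutoff. The lowest of the 3 values was under 70 at 840 of them and under 80 at a further 614, and it reached 150 at 127. The strongest of all was chromosome 19, 61275611 to 61275710, with 1161 normalised reads (WT), 1122 (WWD) and 997 (R). It stood apart from the rest: the next was chromosome 17, 3084298 to 3084397, with 657 (WT), 484 (WWD) and 502 (R). Neither had another H3K4me3 region within 10000 bp, the nearest being 23486 bp and 18208 bp away. Of the 8 strongest regions, 5 were on chromosome 8.

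On chromosome 8, the region at 75094805 to 75094904 held 382 normalised reads (WT), 404 (WWD) and 369 (R). The region at 82235381 to 82235480 held 319 (WT), 338 (WWD) and 428 (R), and the one at 14090113 to 14090212 held 269, 315 and 324. All 3 had another H3K4me3 region within 500 bp and were lowest in WT or, for the first, in R. A further 2 had no other H3K4me3 region nearby and were highest in WT. The region at 19784863 to 19784962 held 474 (WT), 304 (WWD) and 385 (R), and the one at 20019787 to 20019886 held 416, 284 and 335. Their nearest other H3K4me3 regions were 107608 bp and 127116 bp away. The last of the 8, at chromosome 19, 10651713 to 10651812, held 278 (WT), 261 (WWD) and 294 (R).

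Each library in turn was left out, and regions were chosen by the other libraries alone. Those that also reached 60 in the library left out are the 2811 strongest regions themselves. The shares below therefore describe the values used in the choice and are not a test. Of the 3164 regions at or above 60 in WWD and R, 88.8% (exact interval 87.7 to 89.9) were also at or above 60 in WT, a level that 6138 of all 32293 regions reached. Of the 3531 regions chosen by WT and R, 79.6% (78.2 to 80.9) reached it in WWD, against 15.7% of all regions. Of the 3961 chosen by WT and WWD, 71.0% (69.5 to 72.4) reached it in R, against 14.8% of all regions. Strong regions of a pair of libraries were therefore mostly strong in the left-out library. Relative to the H3K4me3 reads that fell in the table, the shares were 83.6% (82.4 to 84.7) for WT, 83.3% (82.1 to 84.4) for WWD and 77.8% (76.6 to 79.1) for R. R had the lowest share under both scalings, whereas WT and WWD differed under library totals only.

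Of the 353 regions that fell short in WT, 18 were under 30 normalised reads there, or 5.10%. In WWD it was 57 of 720, or 7.92%, and in R 230 of 1150. The R level was under 5 at 10 of these, and no region strong in the other 2 libraries was under 5 in WT or WWD. The median in the left-out library was 101 (WT), 85.7 (WWD) and 79.9 (R).

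Between constructs, H3K4me3 at the strongest regions differed by modest amounts. The median ratio of WWD to WT was 0.920 (0.908 to 0.934) and that of R to WT was 0.921 (0.907 to 0.934) relative to library totals, but both turned to above 1, at 1.03 and 1.10, relative to the H3K4me3 reads that fell in the table. The direction of this shift therefore depended on the scaling. Over all regions with a read in either library, the median ratio was 0.860 for WWD and 0.743 for R. Relative to library totals, WWD was below WT at 61.2% of the strongest regions, against 58.8% of all such regions. R was below WT at 59.4%, against 63.7%. Levels below WT were thus about as common over the whole table. Which library was highest turned with the scaling too. Relative to library totals WT was highest at 1218 regions, or 43.3%, WWD at 737 and R at 856. Relative to reads in the table R was highest at 1225, or 43.6%, WWD at 844 and WT at 742. The highest value was 1.44 times the lowest at the median region and 3.38 times at most. It was over 2 times the lowest at 251 regions, or 8.93%. The choice of regions by a high level in every library limits this spread. No share over all regions was computed for the spread or for the highest library.

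Over 2-fold higher H3K4me3 in WWD than in WT was seen at 10 of the 2811 regions, or 0.356%, against 14.2% of all regions. Over 2-fold lower levels in WWD were seen at 65, or 2.31%, against 24.3%. In R, 28 regions were over 2-fold higher and 94 were over 2-fold lower, or 0.996% and 3.34%, against 13.7% and 35.2% of all regions. A high level in all 3 libraries was the condition for being chosen, and low regions have noisy ratios, so nothing is read from the gap to the background.

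**Figure D1:**
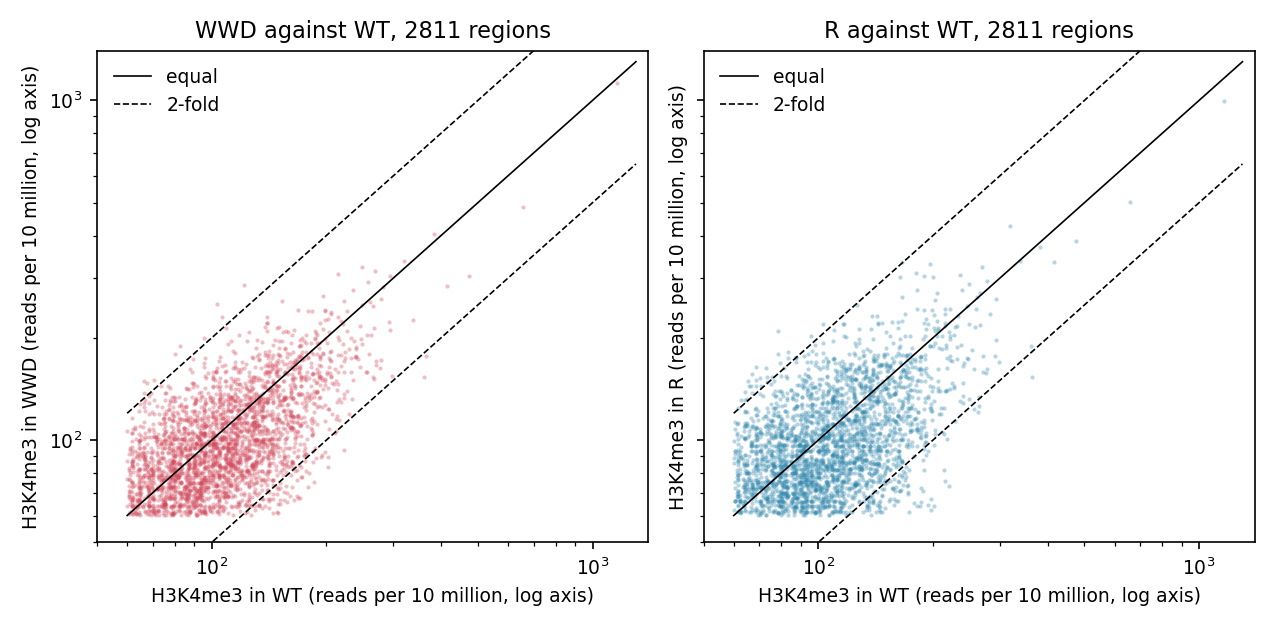
H3K4me3 of WWD (left) and R (right) against WT at the 2811 strongest regions, in normalised reads on log axes. Each point is 1 region, the solid line marks equal values and the dashed lines 2-fold differences; points stop at 60 by the choice of regions, and 10 (WWD) and 28 (R) lie above the upper dashed line.

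The largest differences between constructs were at single regions. The highest WWD to WT ratio was at chromosome 1, 34496977 to 34497076, with 103 normalised reads (WT), 252 (WWD) and 220 (R), a ratio of 2.44 (counting interval 2.08 to 2.88). This region was the last of a run of 3 strong regions. The other two, at 34496040 to 34496139 and 34496408 to 34496507, held 151 and 189 in WT, 115 and 125 in WWD, and 101 and 115 in R. WT was thus highest at the first 2 regions of the run and lowest at the third, 469 bp from its neighbour.

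Chromosome 8, 26957984 to 26958083, had 121 (WT), 286 (WWD) and 167 (R). Chromosome 7, 86537302 to 86537401, had 82.4, 190 and 109, and chromosome 8, 85965985 to 85966084, had 66.5, 150 and 97.7. R lay between WT and WWD at each of these regions. Toward lower values in WWD, chromosome 11, 6174689 to 6174788, had 171 (WT), 67.7 (WWD) and 172 (R), a WWD to WT ratio of 0.396 (0.328 to 0.478). Here R did not share the low WWD value. At chromosome 3, 107434398 to 107434497, with 169 (WT), 67.7 (WWD) and 76.6 (R), both mutants were low. The same held at chromosome 11, 98219769 to 98219868, with 186, 75.3 and 65.6. At chromosome 5, 21243233 to 21243332, R lay in between, with 165 (WT), 66.5 (WWD) and 101 (R).

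For R, the highest ratio to WT was at chromosome 16, 20548787 to 20548886, with 78.2 normalised reads (WT), 63.4 (WWD) and 209 (R), a ratio of 2.67 (2.23 to 3.23). Chromosome 11, 97642982 to 97643081, had 68.6, 71.5 and 164. Chromosome 7, 52242771 to 52242870, had 78.2, 69.6 and 179. At these 3 regions R alone was high. At chromosome 4, 116299231 to 116299330, WWD was in between, with 67.0 (WT), 102 (WWD) and 156 (R).

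The lowest R to WT ratio was at chromosome 8, 127246126 to 127246225, with 198 (WT), 150 (WWD) and 62.4 (R), a ratio of 0.315 (0.261 to 0.379). Chromosome 17, 27977160 to 27977259, had 202, 124 and 64.2, and chromosome 19, 46764473 to 46764572, had 195, 125 and 64.5. At these 3 regions WWD lay in between. Chromosome 11, 107409305 to 107409404, had 221 (WT), 220 (WWD) and 73.3 (R), so that R alone was low. These regions were picked for their ratios out of 2811, and their intervals make no allowance for that.

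Position was not used in the choice. The strongest regions mostly stood beside regions of the H3K4me2 table, a list named after the dimethyl state that typically flanks promoters. An H3K4me2 region lay within 500 bp of 1713 strongest regions, or 60.9% (exact interval 59.1 to 62.7). The share was higher at each higher H3K4me3 level. It was 57.2% (55.8 to 58.6) where the lowest of the 3 H3K4me3 values was 30 to under 60, and 35.6% (34.8 to 36.5) where it was under 5. Within 2000 bp the share was 81.4% (79.9 to 82.9) for the strongest regions and 77.0% (75.9 to 78.2) for the level below. No region of any H3K4me3 level overlapped or touched an H3K4me2 region, the smallest gap being 1 bp.

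Where an H3K4me2 region lay within 2000 bp, the median gap was larger at the strongest regions than at each weaker level, but the upper quartile of 502 bp lay within the 500 to 540 bp of the weaker levels. The median gap was 269 bp at the 2289 strongest regions with such a neighbour, with a lower quartile of 123 bp. It was 231 bp at regions of 30 to under 60 and 200 bp at regions of 15 to under 30, with quartiles of 86.0 and 514 bp and of 78.0 and 500 bp. The labels do not say how the regions of each table were drawn, and the part of that step in these gaps was not tested.

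H3K4me1, the monomethyl state known for enhancers and promoter edges, gave the opposite order at short range. An H3K4me1 region lay within 500 bp of 21 strongest regions, or 0.747% (0.463 to 1.14). The share was 1.24% (0.957 to 1.58) at 30 to under 60 and 4.81% (4.44 to 5.20) at under 5. At 2000 bp the shares lay close together with overlapping intervals, at 16.0% (14.7 to 17.5), 16.7% (15.7 to 17.7) and 17.1% (16.4 to 17.7). Within 10000 bp they were 41.3% (39.5 to 43.2), 45.1% (43.7 to 46.4) and 43.3% (42.5 to 44.2). H3K4me1 regions were thus rare close to the strongest H3K4me3 regions. At 10000 bp the share was again lowest at the strongest regions, but its interval overlapped that at under 5.

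**Figure D2:**
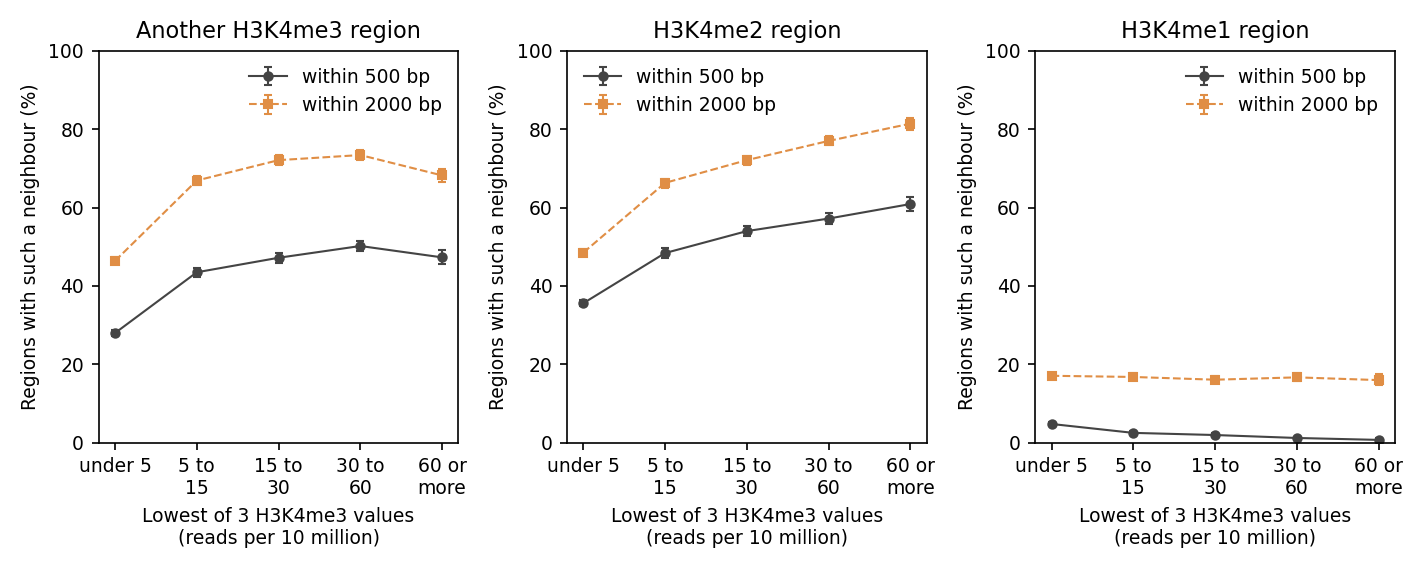
Share of H3K4me3 table regions (%) with another H3K4me3 region, an H3K4me2 region or an H3K4me1 region within 500 bp (circles) or 2000 bp (squares), by the lowest of the 3 H3K4me3 values in normalised reads. Bars are exact 95% intervals over regions; at 500 bp the H3K4me2 share rises to 60.9% and the H3K4me1 share falls to 0.747% at the strongest regions.

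Other H3K4me3 regions lay within 500 bp of 1330 strongest regions, or 47.3% (45.5 to 49.2). This was not more than at 30 to under 60, where it was 50.2% (48.8 to 51.6), but more than at under 5, with 28.0% (27.2 to 28.8). Within 2000 bp the share was 68.2% (66.4 to 69.9) at the strongest regions, below the 73.4% (72.2 to 74.6) at 30 to under 60. A strongest region had another strongest region within 2000 bp in 23.3% of cases (21.7 to 24.9). Regions of 30 to under 60 had a strongest region that close in 15.9% (14.9 to 17.0) and regions of under 5 in 1.64% (1.42 to 1.88). Strongest regions thus lay next to one another more often than weaker regions lay next to them. Joined at gaps of up to 2000 bp, 2156 stood without another strongest region, 574 formed 287 pairs and 81 formed 27 runs of 3. The gaps within pairs and runs were between 174 and 1933 bp with a median of 401 bp.

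Chromosome 8 held more of the strongest regions than its number of regions would give at the rate of the other chromosomes, and chromosome X held few. On chromosome 8, 241 of 1604 regions (exact interval of the share 13.3% to 16.9%) were among the strongest. Over the other 18 autosomes the share ran from 6.72% on chromosome 15 to 10.6% on chromosome 19, with a median of 8.89%. On chromosome X it was 9 of 1012 regions, or 0.889% (0.407 to 1.68). The general H3K4me3 level moved with these shares. The median over all regions of chromosome 8 was 30.1 normalised reads (WT), 24.8 (WWD) and 24.4 (R). On chromosome X it was 13.3, 13.5 and 11.7, and over the other autosomes it ran from 19.7 to 26.6 in WT, 16.1 to 23.1 in WWD and 14.6 to 20.1 in R. J1 cells are a male line with 1 X chromosome, and gain of chromosome 8 is a known event in cultured mouse embryonic stem cells. Chromosome number was not measured here, and its part in these shares was not tested.

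**Figure D3:**
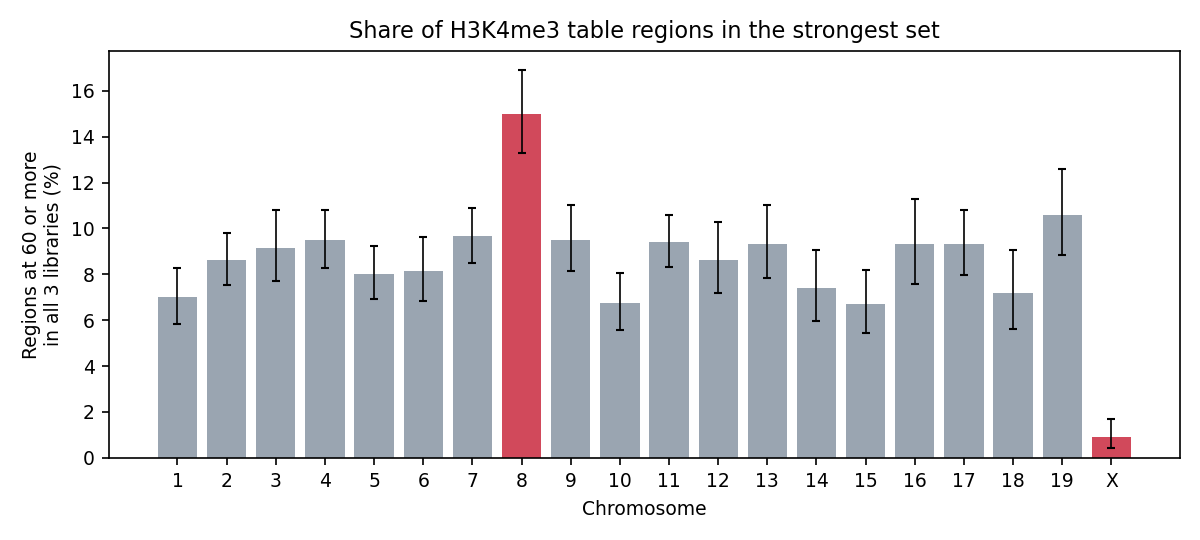
Share of H3K4me3 table regions of each chromosome that were among the strongest (%), with exact 95% intervals over regions. Chromosome 8 (241 of 1604 regions) and chromosome X (0.889%) are drawn in red, and the other autosomes lie between 6.72% and 10.6%.

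The excess on chromosome 8 was not even along the chromosome. Of the 954 regions in its first 90 Mb, 190 were among the strongest, or 19.9% (17.4 to 22.6). Of the 650 regions beyond, 51 were, or 7.85% (5.90 to 10.2), which is within the range of the other autosomes. The boundary was placed after the values were seen. The median H3K4me3 level of all regions was 37.8 (WT), 31.5 (WWD) and 29.9 (R) in the first part. Beyond it the median was 20.7, 17.7 and 15.7. Within the first part, 2 windows of 10 Mb were also low, with 6.78% of regions at 0 to 10 Mb and 8.60% at 30 to 40 Mb. The share was highest at 70 to 80 Mb, with 60 of 233 regions or 25.8%. Chromosome 8 also supplied 31 of the 127 regions at or above 150, or 24.4% (17.2 to 32.8), against 66 of the 840 between 60 and 70, or 7.86% (6.13 to 9.89).

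The 9 strongest regions on chromosome X were of moderate level. In WT they held between 64.4 and 105 normalised reads, in WWD between 71.5 and 138, and in R between 61.6 and 154. The highest value was at 147451372 to 147451471, with 75.5 (WT), 113 (WWD) and 154 (R). The highest WWD value was at 7829649 to 7829748, with 75.5 (WT), 138 (WWD) and 74.0 (R).

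Dnmt3a2 reads were thin at the strongest regions in all libraries, and WWD had the most. At least 1 Dnmt3a2 read was present at 779 of the 2811 regions in WWD, or 27.7% (exact interval 26.1 to 29.4). In WT it was 236 regions, or 8.40% (7.40 to 9.48), and in R 263 regions, or 9.36% (8.30 to 10.5). The intervals of WT and R overlapped, and that of WWD lay above both although its library was the smallest. Over all regions of the table the shares were 25.5% (WWD), 9.89% (WT) and 9.79% (R). Thin reads and the lead of WWD were thus not particular to the strongest regions. Summed over the strongest regions, there were 2552 reads in WWD, 981 in WT and 1278 in R. The mean was 0.526 normalised reads per region in WWD (0.506 to 0.547), 0.145 in WT (0.136 to 0.155) and 0.180 in R (0.170 to 0.190).

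The WWD to WT ratio of mean Dnmt3a2 signal was 3.62 (counting interval 3.36 to 3.90) at the strongest regions and 2.74 (2.68 to 2.80) at all other regions of the table. Relative to the Dnmt3a2 reads that fell in the table it was 1.29 (1.20 to 1.39), and it was 1.77 (1.55 to 2.01) when counted over the 154 strongest regions that had reads in 2 or more libraries. That last filter drops 646 regions with reads in WWD alone and 146 with reads in WT alone, so by construction it lowers the ratio. The R to WT ratio was 1.24 (1.14 to 1.35) at the strongest regions and 1.05 (1.03 to 1.08) elsewhere. By the share of regions with a read, R over WT was 1.11 with an interval of 0.931 to 1.33, which includes 1, so the excess of R was not detectable in that measure. Unlike the ratios of means, ratios of such shares are not scaled by library size.

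Set against weaker H3K4me3 regions, the strongest did not have the lowest Dnmt3a2 signal. In WWD the share of regions with a read was 27.9% where the lowest H3K4me3 value was under 5. It was 22.8% at 5 to under 15, 23.5% at 15 to under 30, 23.7% (22.5 to 24.9) at 30 to under 60 and 27.7% (26.1 to 29.4) at the strongest. The WWD share thus fell and came back, with intervals that did not overlap between the last 2 levels. In WT the share went from 12.9% at under 5 through 8.89%, 7.82% and 6.89% (6.21 to 7.61) to 8.40% (7.40 to 9.48) at the strongest. The same turn was seen in R, from 11.7% through 8.90%, 8.21% and 8.34% (7.60 to 9.13) to 9.36% (8.30 to 10.5). In WT and R the intervals of the last 2 levels overlapped, which does not show that those levels were alike.

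The WWD to WT ratio was 2.40 at under 5, 2.79 at 5 to under 15, 3.13 at 15 to under 30 and 3.74 (3.52 to 3.97) at 30 to under 60. At the strongest regions it was 3.62 (3.36 to 3.90), so it did not go on rising. By share of regions with a read, not scaled by library size, it was 3.44 (3.05 to 3.88) and 3.30 (2.85 to 3.83) at the top 2 levels. On chromosome 8 the share with a WWD read was 34.9% (28.9 to 41.2) at the strongest regions, and weaker regions there also had higher shares than elsewhere, such as 36.2% against 27.6% at under 5. The WT and R shares were also higher there at the strongest regions, but their intervals overlapped those elsewhere. In WT they were 11.6% (7.86 to 16.4) against 8.09% (7.07 to 9.22), and in R 12.4% (8.56 to 17.3) against 9.07% (7.98 to 10.2). Without chromosome 8, the WWD share was still 23.4% (22.2 to 24.6) at 30 to under 60 and 27.0% (25.3 to 28.8) at the strongest regions.

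**Figure D4:**
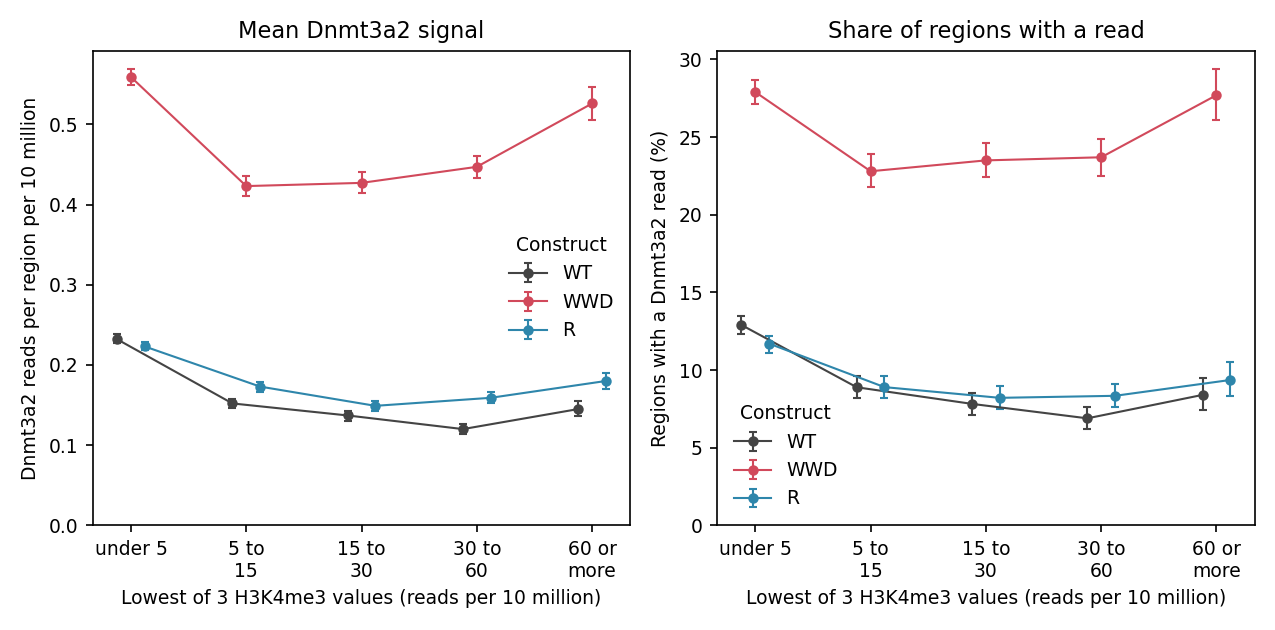
Mean Dnmt3a2 normalised reads per region (left) and share of regions with a Dnmt3a2 read in % (right) for WT, WWD and R, by the lowest of the 3 H3K4me3 values in normalised reads. Bars are 95% intervals for counting error. WWD lies above WT and R at every level, with shares of 27.9% at under 5 and 27.7% at the strongest regions.

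As at the weaker levels, a Dnmt3a2 read was mostly seen in 1 library only. Of the 2811 regions, 1695 had no read in any library, or 60.3%, against 57.6% to 65.9% at the weaker levels. Reads in WWD alone were found at 646, or 23.0%, against 18.3% to 19.7%. Reads in R alone were found at 170, or 6.05%, against 5.28% to 6.20%. Reads in WT alone were found at 146, or 5.19%, against 4.73% to 7.12%. WT and WWD shared 61 (2.17%), WWD and R shared 64 (2.28%), and WT and R shared 21 (0.747%). At the weaker levels these shares ran from 1.51% to 3.89%, from 1.85% to 3.53% and from 0.305% to 1.16%. All 3 libraries had a read at 8 regions, or 0.285%. The share was 0.213% at 30 to under 60, 0.341% at 15 to under 30, 0.282% at 5 to under 15 and 0.767% at under 5. Reads came in clumps: a region with a read held 4.16 reads on average (WT), 3.28 (WWD) and 4.86 (R). Regions with 5 or more reads held 68.2% of the reads (WT), 49.3% (WWD) and 75.9% (R). Counting intervals of read sums are therefore too narrow. The shares of regions with a read are safer in this respect, but they are not scaled by library size.

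The region with the most Dnmt3a2 signal in each library was the one with the most H3K4me3, chromosome 19, 61275611 to 61275710, with 21 Dnmt3a2 reads (WT), 48 (WWD) and 57 (R). It was high in all 6 libraries. Without it the WWD to WT ratio was 3.63 and the R to WT ratio 1.21. Of the other regions among the 6 with the most Dnmt3a2 signal, 1 had at least 7 reads in each library, chromosome 8, 72566728 to 72566827, with 9 (WT), 7 (WWD) and 13 (R). Its H3K4me3 was 235 normalised reads (WT), 276 (WWD) and 306 (R).

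The other 4 were high in 1 or 2 libraries. Chromosome 8, 74843192 to 74843291, had 18 WWD reads of Dnmt3a2, against 0 for WT and R. A count of 0 was taken to allow up to 3 reads, a set value that makes no allowance for clumped reads. H3K4me3 at this chromosome 8 region was 93.6 normalised reads (WT), 125 (WWD) and 110 (R). Chromosome 2, 120434874 to 120434973, had 14 in WWD, 1 in WT and 0 in R, and chromosome 11, 117710247 to 117710346, had 10 in WWD, 0 in WT and 6 in R. Chromosome 4, 145022378 to 145022477, was high in R instead, with 17 reads against 3 in WT and 2 in WWD. H3K4me3 did not share one pattern here: at the chromosome 11 region it was lowest in WWD, with 66.1 normalised reads against 126 for WT and 124 for R.

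Regions high in a single library were also found for WT. Chromosome 6, 67188317 to 67188416, had 16 reads (WT), 1 (WWD) and 0 (R). Chromosome 4, 107040432 to 107040531, had 14 (WT), 0 (WWD) and 1 (R). Further regions of this kind were chromosome 13, 24853167 to 24853266, with 14 reads in WWD and 0 in the others, and chromosome 5, 121641573 to 121641672, with 13 in R and 0 in the others. The last held 106 H3K4me3 normalised reads (WT), 230 (WWD) and 170 (R).

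Within the strongest regions, the share with a Dnmt3a2 read was highest at the top H3K4me3 level in each library. In WWD a read was present at 26.8% of regions whose lowest H3K4me3 value was 60 to under 70, and at 26.5%, 28.2% and 28.3% of the next levels up to 150. At the 127 regions of 150 or more it was 34.6% (26.4 to 43.6), an interval that overlapped those of all lower levels. In WT the share was 6.19% (4.66 to 8.04) at 60 to under 70 and 14.2% (8.62 to 21.5) at 150 or more, and these did not overlap. The WT shares in between, 9.93% (7.68 to 12.6), 8.03% (6.14 to 10.3) and 9.23% (6.88 to 12.1), all overlapped that of the top level. In R it was 9.29% (7.41 to 11.5) and 15.7% (9.89 to 23.3), which did. Chromosome 8 made up 24.4% of the top level, and its part in the higher shares was not tested.

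Grouped by the construct with the most H3K4me3, the strongest regions had overlapping intervals for the share with a Dnmt3a2 read. The shares with a WWD read were 28.9% (25.7 to 32.3) where H3K4me3 was highest in WWD and 26.8% (24.4 to 29.4) where it was highest in WT. The shares with an R read were 9.70% (7.80 to 11.9) where it was highest in R and 8.70% (7.18 to 10.4) where it was highest in WT. Mean WWD signal was 0.590 (0.549 to 0.634) in the group highest in WWD and 0.503 (0.473 to 0.535) in that highest in WT, which did not overlap. Without the chromosome 19 region, the mean of the group highest in WT was 0.481 (0.452 to 0.511), still without overlap. With the groups drawn relative to reads in the table, the means were 0.588 (0.550 to 0.629) and 0.484 (0.447 to 0.524), which did not overlap either. Only with both changes did they overlap, at 0.556 (0.518 to 0.596) and 0.484 (0.447 to 0.524). Mean R signal was 0.157 (0.141 to 0.174) in the group highest in R. It was 0.193 in the group highest in WT with the chromosome 19 region and 0.175 (0.160 to 0.190) without it, the latter overlapping.

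Mean WWD signal also differed with neighbours in the other tables, while the shares with a WWD read went the same way with overlapping intervals. With an H3K4me2 region within 500 bp, mean WWD signal was 0.479 (0.455 to 0.505), and without one 0.599 (0.565 to 0.635). The shares with a WWD read, 26.9% (24.8 to 29.1) and 29.0% (26.3 to 31.7), overlapped. With an H3K4me1 region within 2000 bp, mean WWD signal was 0.414 (0.370 to 0.461), against 0.547 (0.525 to 0.571) at the 2360 regions without. There the shares with a WWD read were 23.1% (19.2 to 27.2) and 28.6% (26.8 to 30.5), which overlapped narrowly. Mean R signal was lower with such a neighbour as well, at 0.127 (0.107 to 0.150) against 0.190 (0.179 to 0.201). Mean WT signal was not lower, at 0.159 (0.136 to 0.184) against 0.143 (0.133 to 0.153), with overlapping intervals. The WWD to WT ratio was 2.60 (2.16 to 3.15) with such a neighbour and 3.84 (3.54 to 4.16) without. Because reads are clumped, the intervals of these means and ratios are too narrow.

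The H3K4me2 regions beside the strongest H3K4me3 regions showed a smaller WWD excess than the strongest regions themselves. At the 1879 H3K4me2 regions within 500 bp, mean Dnmt3a2 signal was 0.486 normalised reads per region in WWD (0.463 to 0.511), 0.215 in WT (0.202 to 0.229) and 0.260 in R (0.246 to 0.275). The WWD to WT ratio there was 2.26 (2.09 to 2.45), and at H3K4me2 regions beside H3K4me3 regions of under 5 it was also 2.26 (2.15 to 2.39). Compared with the H3K4me3 regions they flanked, these neighbours had a higher mean signal in WT and R, while the WWD intervals overlapped.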

How the data were processed

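Reads of the FLAG and H3K4me3 ChIP libraries were placed on mm9 by Bowtie; this comes from the submitters' processing notes, which give no version here. The values deposited by the authors are log2 read counts per 100 bp region, scaled to an effective total per the file headers. The values also hold an amount below 1 read per region, seen in the values and named in no label, which taking whole reads drops. Whole reads were recovered as the integer part of (2 to the value, minus 1) divided by the scaling factor, and expressed per 10000000 library reads. On simulated data the recovery was exact for at least 96.9% of counts up to 50, and its largest error for H3K4me3 counts above 150 was 0.662%. These values do not cover counts between 50 and 150, where the cutoff in WT lies (113 reads). The simulation itself added an amount below 1 read, so it did not test that part of the recovery. Columns that match no sample in the labels (2 in all) were left out, as was the input.

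The choice of regions and the lists here were made with earlier results of these data known. Regions were grouped by the lowest of the 3 H3K4me3 values. Named regions are those with the highest or lowest levels, ratios and Dnmt3a2 signal, the nearest to the cutoff, the first run of 3 strongest regions, and those on chromosome X, which were added after values were seen. So were the tiers within the strongest regions, the windows and the 90 Mb boundary. Intervals are exact Poisson for sums, exact conditional binomial for ratios, Clopper-Pearson for shares and order statistics for medians. Folds of 2 mark large differences. A count of 0 was taken to allow up to 3 reads, which is a set value and not a limit of these intervals. Alternatives covered the cutoff, the scaling, a cap of 20 reads, chromosome 8 and the distance. Python 3.11.15, numpy 2.4.6, pandas 2.3.3, scipy 1.17.1 and matplotlib 3.10.9 were used.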

Additional observations from a re-analysis of the deposited data

How the results depend on the processing

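Of 40 alternative values, 19 lay inside the main interval (for counts, inside 1.5 times the main count), 19 lay outside and 2 turned direction. No paired analysis was possible because the columns carry no replicate numbers. The number of strongest regions was 1357 at a cutoff of 80 and 5103 with the cutoff on the mean of the 3 libraries; the other settings kept all 2811 and added between 39 and 1133. Scaled to reads in the table, the median H3K4me3 ratio turned to 1.03 in WWD and 1.10 in R, since the table held a smaller part of the mutant libraries; at a cutoff of 80 the R ratio was 0.936. The Dnmt3a2 ratio of WWD to WT was 3.30 by share of regions with a read, 1.77 with reads in at least 2 libraries, 1.29 scaled to reads in the table and 3.35 on chromosome 8 alone. That of R to WT was 1.11 by share, 1.10 with reads in at least 2 libraries and 1.06 at a cutoff of 80. The shares re-found in the library left out were 83.6% (WT), 83.3% (WWD) and 77.8% (R) when scaled to reads in the table. Those shares, the highest library under that scaling, the values on chromosome 8 alone and without the strongest region were added after seeing the data. By construction, distance changed the shares with a neighbour: 0 when overlap was asked for, and 68.2%, 81.4% and 16.0% within 2000 bp for H3K4me3, H3K4me2 and H3K4me1 regions. Few Dnmt3a2 reads per region limit what any single region can show.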

Other observations

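Some strongest regions stood apart from the other H3K4me3 and H3K4me2 regions, though not always from H3K4me1 regions. At 120 of the 2811, or 4.27% (exact interval 3.55 to 5.08), there was neither an H3K4me2 region nor another H3K4me3 region within 10000 bp. The share was 4.42% at H3K4me3 values of 30 to under 60 and 19.2% at under 5. Among the 127 regions at or above 150 it was 10, or 7.87% (3.84 to 14.0). H3K4me3 of the isolated regions was like that of the rest, with medians of 106 (WT), 96.5 (WWD) and 90.2 (R). Dnmt3a2 reads were present at 29.2% of them for WWD, 9.17% for WT and 13.3% for R (7.82 to 20.7). The mean Dnmt3a2 signal was 0.879 in WWD with chromosome 19, 61275611 to 61275710, and 0.652 without that single region; in R the values were 0.449 and 0.263.

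Windows of 10 Mb with at least 50 H3K4me3 regions numbered 214, and the median share of strongest regions in them was 7.78%. Of the 10 windows with the highest shares, 5 were on chromosome 8. The others included chromosome 13 at 100 to 110 Mb with 19 of 90 regions (21.1%), chromosome 13 at 70 to 80 Mb with 20 of 96 (20.8%) and chromosome 2 at 120 to 130 Mb with 33 of 162 (20.4%). There were 8 windows without any strongest region, of which 7 were on chromosome X. On chromosome 8, strongest regions in the first 90 Mb had a WWD Dnmt3a2 read at 38.9% (32.0 to 46.3), against 19.6% (9.82 to 33.1) at the 51 regions beyond. In WT the shares were 13.7% (9.14 to 19.4) and 3.92% (0.478 to 13.5), and in R 12.1% (7.83 to 17.6) and 13.7% (5.70 to 26.3). The regions beyond 90 Mb held 9 Dnmt3a2 reads (WT), 33 (WWD) and 44 (R).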
